A study of Mus musculus with 18 samples.

Results

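The genes described here are solute carriers whose RNA was measured in samples of eosinophils sorted from the mouse small intestine. These samples also held transcripts of gut epithelium, so a gene on the list need not be expressed by eosinophils. The genes were chosen by measured values. A gene entered when its symbol began with Slc followed by a digit or an o and when its mean over all 18 samples was at least 7 on the log2 scale of the deposited values, a level of about 71.3 normalized counts. Of 388 genes with such a symbol among the 22708 in the table, 152 entered, and the symbol of 3 of them (Slc4a1ap, Slc7a6os and Slc9a3r1) names a protein that is not itself a carrier. Their levels are therefore a description, and differences between groups can follow in part from the choice where a gene reached the threshold through some groups only.

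Eosinophils had been sorted as CD11b+MHC-II-SiglecF+SSChi cells from the small intestine of C57BL/6 mice (C57/BL6 in the labels), and their RNA was sequenced in bulk. The study asked what the aryl hydrocarbon receptor (AHR), a transcription factor that ligands activate, does in these cells. The 6 WT samples came from wildtype mice, 6 samples from mice labelled as Ahr knockout (Ahr-/-) and 6 from mice labelled as knockout of Ahrr, the gene of the AHR repressor (Ahrr-/-). Each genotype had 3 females (F1 to F3) and 3 males (M1 to M3), no treatment is named, and the age of the mice is not in the labels. The Ahr deletion was not limited to eosinophils, so effects within eosinophils and effects of other cells cannot be told apart, and the allele of the Ahrr-/- mice is not stated. The study's methods state that Ahr-/- and WT mice were neither littermates nor cohoused, so litter, housing and the Ahr genotype cannot be told apart, and housing of the Ahrr-/- mice is not stated. The labels name no pooling of mice and no repeated sequencing of a sample, and the 6 samples of a genotype were treated as independent. The total counts of the WT libraries ranged from 3842977 to 8149200 with a median of 6022409, those of Ahr-/- from 6581818 to 10284124 (9647589) and those of Ahrr-/- from 8788867 to 12046933 (10371556).

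Solute carriers are membrane proteins that move sugars, amino acids, ions, metals, nucleotides, lipids and vitamins across the plasma membrane and the membranes of organelles, by facilitated diffusion, exchange or cotransport with an ion. They set which nutrients a cell can take up, how it holds its pH and ion gradients, and which metabolites enter the mitochondria, the Golgi and the lysosome. In the intestine many of the same families do the absorptive work of the epithelium, with which sorted leukocytes share tissue and, in part, transcripts.

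The genes that the genotypes are named for were looked at first. Ahr, on chromosome 12 of GRCm38 from 35497979 to 35534989, had deposited values of 13.40, 13.76 and 14.40 in WT (lowest, median and highest of 6 samples), 14.15, 14.55 and 14.67 in Ahr-/- and 13.03, 13.51 and 14.42 in Ahrr-/-. The Ahr transcript was thus not lower in the samples labelled Ahr-/-, of which 4 lay above every WT sample (difference WT minus Ahr-/- -0.61, SE 0.19, limma adjusted p 0.0557). Ahrr, on chromosome 13 from 74211118 to 74292331, lay at 9.79, 10.12 and 10.39 in WT and at 9.95, 10.37 and 10.93 in Ahrr-/-, and thus no lower in mice with the Ahrr-/- label (difference WT minus Ahrr-/- -0.28, SE 0.18, limma adjusted p 0.683). Which stretch of either gene was deleted is not stated, so the counts of these genes in their own knockouts cannot check the labels. In Ahr-/- the Ahrr transcript was counted 0, 1, 10, 0, 2 and 1 times in F1, F2, F3, M1, M2 and M3, against 550 to 1024 counts in the WT samples. The 0 counts of F1 and M1 allow up to 2.51 and 3.42 normalized counts (3 counts, counting error only). Ahrr is a target gene of AHR, and all 6 WT samples lay above all 6 Ahr-/- samples (difference 4.83, SE 0.14, limma adjusted p 4.95e-12). Deposited values compress differences at low counts, and by voom the difference was 9.56, so its size depends on the scale. Other known targets, named after their values were seen, did not overlap either. Cyp1b1 had 1 to 5 counts in Ahr-/- and 218 to 917 in WT, Tiparp lay at 9.42 to 10.16 and at 11.79 to 12.85, and Nqo1 at 6.28 to 6.92 and at 8.06 to 8.43 (difference 1.82, SE 0.12, limma adjusted p 1.27e-07). The samples labelled Ahr-/- thus had less RNA of these 4 targets, which checks that label in part, while the Ahrr-/- label is taken as given.

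The label of the cells was held against marker genes. Of 10 eosinophil markers, Alox15, Ccr3, Il5ra and Siglecf were abundant in every genotype, with WT medians of 14.08, 13.62, 11.08 and 11.09, and Alox15 made up 53.4% of the list's summed normalized counts. Epx, Prg3, Ear1, Ear2 and Ear6, which encode granule proteins that are transcribed mainly in precursors, had means less than 1 above the lowest deposited value, which stands for a count of 0. The granule gene Prg2 lay between 6.69 and 7.61 in WT, between 8.60 and 9.95 in Ahr-/- and between 6.48 and 7.96 in Ahrr-/-. Summed eosinophil markers per sample were 24866 to 38211 normalized counts in WT, 38503 to 49555 in Ahr-/- and 14322 to 38775 in Ahrr-/-, with the lowest sums in Ahrr-/- M3 (14322) and F3 (21236). Transcripts of gut epithelium were present beside them, and in Ahrr-/- F3, M1 and M3 the 14 enterocyte markers summed to 33765, 36118 and 35598 normalized counts, above every other sample. Those 3 samples therefore stand apart, and differences of carriers between the knockouts and between the sexes that are described in full are also given without them.

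At the level of the whole list, the 152 carriers took up about the same share of each library, with medians of 1.02% of counts in WT, 1.01% in Ahr-/- and 1.03% in Ahrr-/-, and none of them had a count of 0 in any sample. Their means over the 18 samples ran from 7.02 to 12.39 with a median of 8.13, against a median of 7.89 over all genes that entered the tests on 18 samples. To compare levels between genes, normalized counts were divided by the length of the merged exons. On that scale the adenine nucleotide exchanger of the inner mitochondrial membrane, Slc25a5, stood first with 1737 normalized counts per kb, followed by Slc25a3, the mitochondrial phosphate carrier, with 1475, and by the organic anion carrier Slco4c1 with 1066. The order of the first genes rests on Ahrr-/- F3, M1 and M3, since over the other 15 samples, a choice made after seeing the data, Slc25a3 had 1413 per kb, Slc25a5 1405 and Slco4c1 1139. The glucose transporter Slc2a3 reached 734 per kb, the neutral amino acid exchanger Slc7a8 724, Slc3a2, the heavy chain with which such exchangers pair, 608, and the cystine importer Slc7a11 565. At the other end were the myo-inositol carrier Slc5a3 with 11.6 per kb, the calcium exchanger Slc8a1 with 13.6 and the potassium-chloride cotransporter Slc12a5 with 13.7. Over the other 15 samples the lowest were Slco2a1 (11), Slc5a3 (11.4) and Slc9a2 (12.4), with Slc8a1 at 14.4 and Slc12a5 at 15. Apart from Slc7a8, Slc25a5, Slco4c1, Slc2a3, Slc8a1, Slc12a5 and Slc3a2, which the naming rule selects, these genes were named after their values had been seen.

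Sorted by family, the largest classes were inorganic ions and pH (25 genes), mitochondrial carriers (24), metal ions and heme (22), nucleotide sugars and other Golgi or endoplasmic reticulum carriers (21) and amino acids (19). Amino acid carriers supplied 24.1% of the counts of all 152, mitochondrial carriers 15.2%, ion and pH carriers 14.3% and organic anion and cation carriers, of which there were 10, another 10.2%. Metal carriers supplied 8.42%, Golgi and endoplasmic reticulum carriers 7.69%, the 5 sugar carriers 5.26%, the 6 carriers of monocarboxylates and dicarboxylates 5.21% and the 6 of lipids and choline 3.76%. Carriers of peptides and of lysosomes and vesicles (5 genes), of nucleosides (3 genes) and of vitamins (2 genes) supplied 2.14%, 1.31% and 0.588%, and 4 genes of other families 1.86%. These shares are pooled over all 18 samples and are not given without Ahrr-/- F3, M1 and M3, so the order of classes with close shares may depend on those samples. Within classes, the highest levels per length belonged to Slc40a1 among metal carriers (368 normalized counts per kb), Slc16a3, a lactate exporter, among monocarboxylate carriers (451), Slc44a2 among lipid and choline carriers (359) and Slc35a3 among Golgi carriers (274). They belonged to the peptide carrier Slc15a2 (247), the nucleoside carrier Slc28a2 (185), the sodium-glucose cotransporter Slc5a1 (116, among the other families) and the ascorbate carrier Slc23a2 (59.4) in the smaller classes. Without Ahrr-/- F3, M1 and M3 the level of Slc5a1 was 73.1 per kb, below Slc66a2 of the same class (92.8, named after its value was seen), and Slc15a2, Slc28a2 and Slc23a2 stayed highest in theirs. In the ion class it was Slc9a3r1 (519), a scaffold protein that binds a sodium-proton exchanger and carries no solute. All these levels are pooled over the genotypes. Slc40a1, which differed between them, was followed by Slc11a1 (349), so its rank need not hold in each genotype.

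The threshold divides genes of nearly equal level. Just inside it were Slc37a4, the glucose 6-phosphate carrier of the endoplasmic reticulum (mean 7.02), the choline transporter-like Slc44a3 (7.07) and the organic anion carrier Slc17a4 (7.10), and just outside the bile acid carrier Slc10a1 (6.99), the cystine and dibasic amino acid carrier Slc7a9 (6.95) and the nucleoside carrier Slc29a1 (6.94). Genotype means were at least 7 for 150 of the 152 genes in WT, 138 in Ahr-/- and 151 in Ahrr-/-, for 137 in all genotypes, and 102 genes were at 7 or above in every sample. There were 13 genes at or above 7 in WT and Ahrr-/- but below it in Ahr-/-, among them Slc12a8, Slc9a3, Slc44a3 and Slc17a4, while Slc12a5 reached 7 only in Ahr-/- and Slc37a4 only in Ahrr-/-. Genes that entered through some genotypes only had to differ between genotype means, so their direction follows in part from the choice. All 152 passed the minimum mean of the tests, which was 1 above the lowest deposited value, or about 16.2 normalized counts.

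WT against Ahr-/- asks whether the transport repertoire of intestinal eosinophils depends on the receptor. AHR is known to induce enzymes that modify its ligands. Carriers move nutrients and other solutes into and out of the cytosol, so import and export genes are of interest beside the enzymes. Differences are WT minus Ahr-/- and were tested with limma with sex as covariate. Among all 11346 genes tested, 1003 had an adjusted p below 0.05, which is 8.84%, and among the 152 carriers 11 did, which is 7.24%. Of the carriers, 2 were higher in WT (background 3.68%) and 9 were higher in Ahr-/- (background 5.16%). The share of the carriers was near the background. Here and in the comparisons that follow, the background includes genes of lower level than the carriers, since the tests admit lower means. With a minimum mean 3 above the lowest deposited value for both, 8 of 82 carriers and 673 of 5323 genes passed. Unadjusted p was below 0.05 for 40 carriers, 26.3%, and for 23.3% of all genes, and the median difference was 0.02 for the carriers and 0.00 for all genes. WT and Ahr-/- samples did not overlap for 7 carriers, 4.61%, against 4.51% of all genes, with 1 carrier higher in WT (background 1.89%) and 6 higher in Ahr-/- (background 2.62%). Leaving out Ahr-/- F1 brought the number of carriers with an adjusted p below 0.05 to 6, and leaving out any other sample gave between 8 and 15, while a fit of all 18 samples together gave 6. Over all genes the number went from 1003 to 623 of 11377 without Ahr-/- F1 and to 553 of 11468 with all 18 samples in the fit. Without any other sample it lay between 677 of 11374 (without Ahr-/- F2, 8 carriers) and 1124 of 11364 (without WT F2, 14 carriers). It was 1088 of 11354 without WT M1, where 15 carriers passed. In bulk RNA, fewer cells of a type and less RNA per cell cannot be told apart, here and in every comparison that follows.

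**Figure D1:**
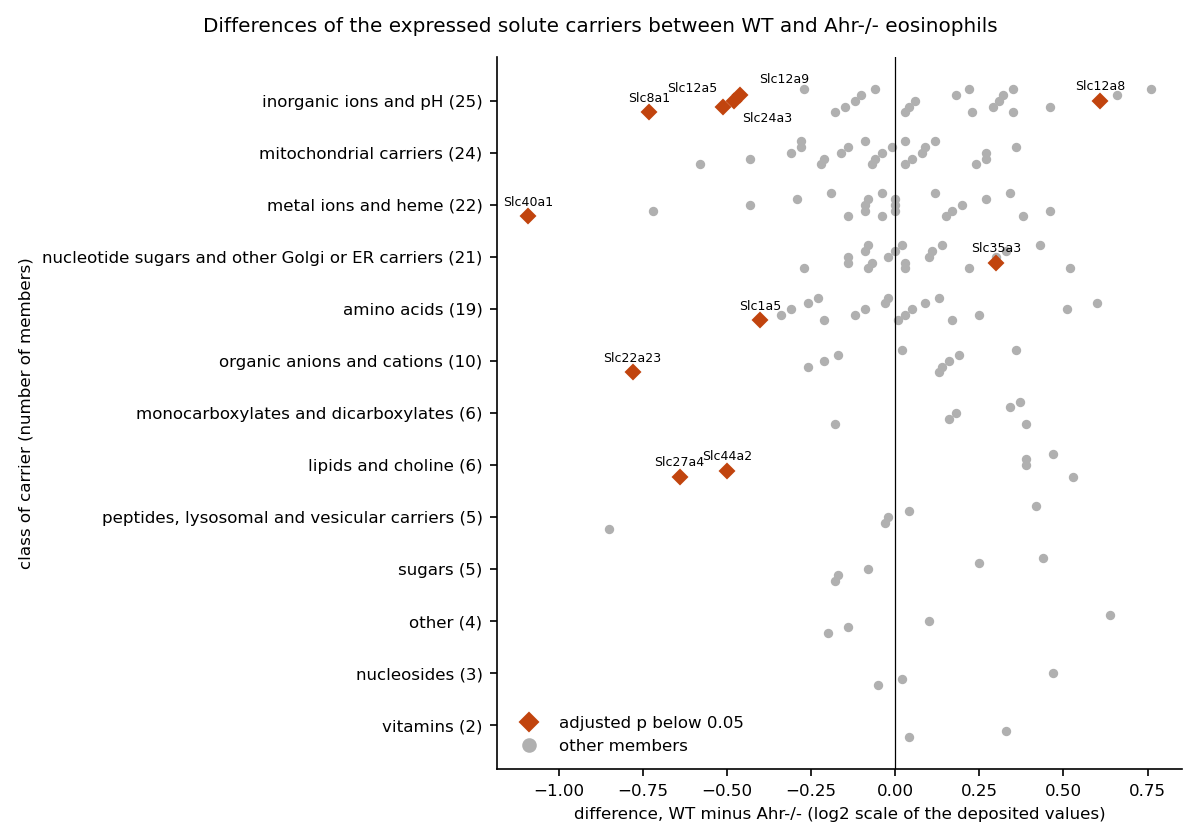
Each point is 1 of the 152 solute carriers, placed by its difference WT minus Ahr-/- on the log2 scale of the deposited values (x axis) and by its class (y axis, with the number of genes). Orange diamonds mark the 11 genes with a limma adjusted p below 0.05, of which 5 are carriers of inorganic ions, and the others spread around 0 between -0.85 and 0.76.

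The largest of these differences was that of a metal carrier. Slc40a1 (chromosome 1, 45908070 to 45926532) encodes ferroportin, the exporter through which cells release iron. Pooled over all 18 samples it was the most abundant metal carrier per length, with 368 normalized counts per kb against 349 for Slc11a1. Since Slc40a1 differed between genotypes, this order need not hold in WT or in Ahrr-/-. It lay at 9.32, 9.94 and 10.11 in WT (lowest, median and highest) and at 10.48, 10.87 and 11.35 in Ahr-/-. Every Ahr-/- sample was above every WT sample, with the highest values in the 3 Ahr-/- males. The mean normalized count was 2.22-fold higher in Ahr-/- (difference -1.09, SE 0.13, limma adjusted p 4.39e-05), and the highest adjusted p among the alternatives was 0.0017, with the call kept when each sample was left out in turn. Of the 22 carriers of metals and heme it was the only one with an adjusted p below 0.05 (4.55%, against 8.84% of all genes), and their median difference was -0.02.

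Carriers of inorganic ions set membrane potential, cell volume and calcium signals, and 5 of the 25 in this class passed the test (20%, against 8.84% of all genes), 4 higher in Ahr-/- and 1 higher in WT. Of the 5, Slc12a5 and Slc12a8 entered the list through some genotypes only, so this share follows in part from the choice. Slc8a1 (chromosome 17, 81373105 to 81738387), the sodium-calcium exchanger of the plasma membrane, lay at 7.85, 7.97 and 8.22 in WT and at 8.27, 8.76 and 8.99 in Ahr-/-. Its groups did not overlap, although Ahr-/- F3 (8.27) came close to WT M1 (8.22). The difference was -0.73 (SE 0.11, limma adjusted p 0.000504, all 6 Ahr-/- samples above WT), it was kept with each sample left out, and the highest adjusted p among the alternatives was 0.00223. Slc24a3 (chromosome 2, 145167775 to 145642166) exchanges calcium and potassium for sodium and lay at 8.64, 9.02 and 9.18 in WT and at 9.13, 9.39 and 9.69 in Ahr-/-. All but Ahr-/- F2 (9.13) were above the highest WT sample. Its difference was -0.48 (SE 0.13, limma adjusted p 0.0241, 5 of 6 Ahr-/- samples above WT), and without each of WT M3, Ahr-/- F1, Ahr-/- F3 and Ahr-/- M3 the adjusted p lay between 0.056 and 0.0634. With all 18 samples in the fit its adjusted p was 0.138.

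The family of cation-chloride cotransporters contributed genes in both directions. Slc12a9 (chromosome 5, 137314558 to 137340070), a member whose substrate is not settled, lay at 8.17, 8.47 and 8.60 in WT and within 8.87 to 8.94 in Ahr-/- (median 8.88). The 6 Ahr-/- samples were nearly equal, with an SD of 0.02, and all were above WT (difference -0.46, SE 0.09, limma adjusted p 0.00569, at most 0.0164 among the alternatives). Slc12a5 (chromosome 2, 164960846 to 164999731), the potassium-chloride cotransporter best known from neurons, lay at 6.69, 6.97 and 7.22 in WT and at 7.26, 7.52 and 7.77 in Ahr-/-. The groups did not overlap, with WT F3 (7.22) just below Ahr-/- F2 (7.26), and counts were low, between 38 and 88 in WT and between 104 and 178 in Ahr-/-. Its difference was -0.51 (SE 0.12, limma adjusted p 0.0131, all 6 Ahr-/- samples above WT), with an adjusted p of 0.0891 when all 18 samples entered the fit and a difference of -0.78 by voom. Slc12a8 (chromosome 16, 33517328 to 33664138), of the same family, went the other way, with 6.91, 7.14 and 7.68 in WT and 6.28, 6.63 and 6.86 in Ahr-/-. No sample overlapped, and the highest WT samples were F1 (7.68) and M3 (7.50). Its difference was 0.61 (SE 0.16, limma adjusted p 0.0241, all 6 WT samples above Ahr-/-). The mean normalized count of Slc12a8 was 2.12 times as high in WT, with a log2 difference of 1.16 by voom. Without each of WT M3, Ahr-/- F1, Ahr-/- F2 and Ahr-/- M3 its adjusted p lay between 0.0596 and 0.0673, and the highest among the alternatives was 0.125. Since Slc12a8 and Slc12a5 entered the list through some genotypes only, these directions follow in part from the choice.

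Lipid and choline carriers supply fatty acids for storage and oxidation and choline for membranes. Slc44a2 (chromosome 9, 21320719 to 21355028), a choline transporter-like protein, lay at 9.93, 10.24 and 10.50 in WT and at 10.67, 10.73 and 10.93 in Ahr-/-. Each Ahr-/- sample was above each WT sample (difference -0.50, SE 0.11, limma adjusted p 0.00852), and with all 18 samples in the fit the adjusted p was 0.059. Slc27a4 (chromosome 2, 29802634 to 29817522), which takes up long-chain fatty acids and joins them to coenzyme A, lay at 7.68, 8.29 and 8.91 in WT and at 8.07, 8.81 and 9.75 in Ahr-/-. Only the 3 Ahr-/- females were above the highest WT sample, and the males overlapped. Its difference was -0.64 (SE 0.18, limma adjusted p 0.0384), and the adjusted p lay between 0.0591 and 0.1 without each of WT F1, WT F3, WT M2, WT M3, Ahr-/- F1, Ahr-/- F2, Ahr-/- M2 and Ahr-/- M3. It was 0.151 at its highest among the alternatives. The other 4 of the 6 carriers of this class were higher in WT without passing the test, so that the median difference of the class was 0.39.

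Of the 11 genes that passed the test, 9 had a promoter entry in RefSeq on GRCm38.p6, the exceptions being Slc40a1 and Slc1a5. Windows of 225 bases, from 250 to 26 bases before each annotated start, were searched on both strands for GCGTG, which reads as CACGC where it lies on the opposite strand. It is the core that AHR and its partner recognize, and it was searched because these genes differed between WT and Ahr-/-. The letters were found for 4 of the 9 genes (44.4%), once in each, against 55 of the 116 carriers with an entry (47.4%), 45.3% of the tested genes with an entry and 28.1% of all genes in RefSeq. Counted by windows, 4 of the 14 windows of the 9 genes (28.6%) hold the letters, against 39.5% of those of the 116 carriers, 40% of those of tested genes and 25.5% of all windows of this length. A match is a description of letters and not a site. The 4 windows follow, read 5′ to 3′ on the strand of the gene, with the match in capitals. They are chr17:81738413-81738637 (minus strand) for Slc8a1, chr9:21320469-21320693 (plus strand) for Slc44a2, chr2:145167525-145167749 (plus strand) for Slc24a3 and chr5:137333608-137333832 (minus strand) for Slc12a9.
Slc8a1: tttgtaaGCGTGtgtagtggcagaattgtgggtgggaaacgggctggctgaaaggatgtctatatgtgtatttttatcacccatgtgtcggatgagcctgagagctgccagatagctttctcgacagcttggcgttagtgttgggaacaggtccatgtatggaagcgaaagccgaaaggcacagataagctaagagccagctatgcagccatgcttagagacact
Slc44a2: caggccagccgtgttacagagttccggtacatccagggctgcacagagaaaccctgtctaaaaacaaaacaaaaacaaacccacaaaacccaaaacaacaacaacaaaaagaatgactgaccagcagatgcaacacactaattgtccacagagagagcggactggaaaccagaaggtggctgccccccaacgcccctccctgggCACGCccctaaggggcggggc
Slc24a3: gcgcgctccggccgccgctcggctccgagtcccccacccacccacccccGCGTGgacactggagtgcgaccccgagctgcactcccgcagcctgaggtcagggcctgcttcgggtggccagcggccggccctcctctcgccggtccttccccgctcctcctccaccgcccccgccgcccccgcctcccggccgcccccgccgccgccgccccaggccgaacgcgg
Slc12a9: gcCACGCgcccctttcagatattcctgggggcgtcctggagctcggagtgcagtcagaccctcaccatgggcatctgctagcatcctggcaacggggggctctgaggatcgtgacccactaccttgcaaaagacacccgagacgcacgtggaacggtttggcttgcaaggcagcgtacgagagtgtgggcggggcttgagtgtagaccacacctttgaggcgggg

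Among carriers of amino acids, sugar nucleotides and organic ions, 1 gene passed the test in each class, which is 1 of 19 (5.26%), 1 of 21 (4.76%) and 1 of 10 (10%), against 8.84% of all genes. Slc1a5 (chromosome 7, 16781334 to 16798274), which exchanges glutamine and other neutral amino acids, had a mean of 8.83 (SD 0.13) in WT, from 8.64 upward, and lay at 9.14, 9.22 and 9.39 in Ahr-/-. All Ahr-/- samples were above all WT samples (difference -0.40, SE 0.09, limma adjusted p 0.00923), it passed with any 1 sample omitted, and the adjusted p was at most 0.0344 among the alternatives. Slc35a3 (chromosome 3, 116669469 to 116712708), which brings UDP-N-acetylglucosamine into the Golgi for glycosylation, lay at 10.62, 10.81 and 10.91 in WT and at 10.15, 10.49 and 10.75 in Ahr-/-. The 3 Ahr-/- females were below all WT samples, and the Ahr-/- males overlapped with the WT females. Its difference was 0.30 (SE 0.09, limma adjusted p 0.0371, 3 of 6 WT samples above every Ahr-/- sample), and it was lost in many settings. Without each of WT F2, WT F3, WT M2, WT M3, Ahr-/- F1, Ahr-/- F2, Ahr-/- F3, Ahr-/- M2 and Ahr-/- M3 the adjusted p lay between 0.0532 and 0.0838, and it reached 0.241 among the alternatives. Slc22a23 (chromosome 13, 34179158 to 34345275), an organic ion carrier without an assigned substrate, lay at 6.88, 7.16 and 7.81 in WT and at 7.15, 8.17 and 8.35 in Ahr-/-. Ahr-/- F2 (7.15) lay among the WT samples, and the other 5 Ahr-/- samples were above them. Its difference was -0.78 (SE 0.19, limma adjusted p 0.0204), with 0.0531 to 0.0574 without each of WT F3, Ahr-/- F1 and Ahr-/- F3, and 0.0621 by voom. Slc22a23 passed by voom with size factors, a setting chosen after seeing the data.

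Classes in which no gene passed the test were the mitochondrial carriers (0 of 24, 4 with an unadjusted p below 0.05 in limma), the carriers of monocarboxylates and dicarboxylates (0 of 6, 0), sugars (0 of 5, 0), peptides, lysosomes and vesicles (0 of 5, 1), other families (0 of 4, 1), nucleosides (0 of 3, 1) and vitamins (0 of 2, 1). Over all genes 8.84% passed and 23.3% had an unadjusted p below 0.05 in limma. Slc25a5 lay between 10.25 and 11.59 in WT and between 10.28 and 11.17 in Ahr-/-, and Slc2a3 between 11.09 and 11.95 and between 11.47 and 11.79. In the organic anion class, where Slc22a23 passed, Slco4c1 lay between 12.11 and 12.89 and between 12.22 and 12.86. Slc15a2, which takes up small peptides, had the lowest difference among the genes that did not pass (-0.85, SE 0.55, limma adjusted p 0.376), with 5 Ahr-/- samples above every WT sample and Ahr-/- M3 (6.54) below all of them. It passed without Ahr-/- M3 (difference -1.51, SE 0.25, limma adjusted p 0.00185). The 141 carriers that did not pass had differences between -0.85 and 0.76, with a median of 0.03.

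**Figure D2:**
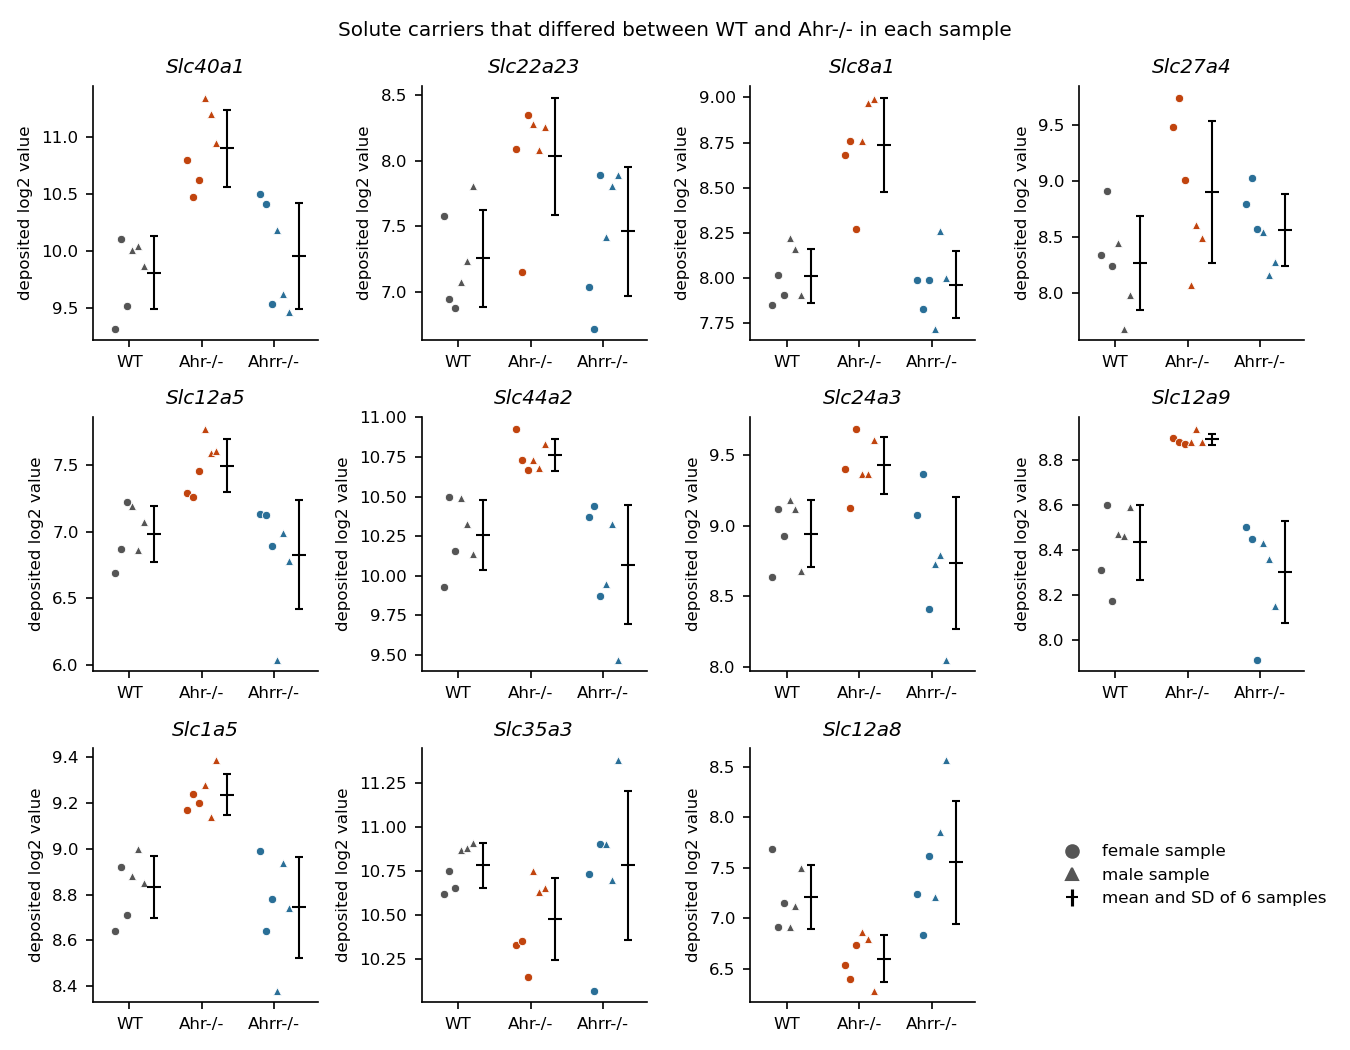
Deposited log2 values (y axis) of the 11 solute carriers that passed the test between WT and Ahr-/-, in each sample of the 3 genotypes (x axis), with circles for females, triangles for males and the mean with SD of 6 samples in black. Ahr-/- samples lie above all WT samples for Slc40a1, Slc8a1, Slc12a5, Slc44a2, Slc12a9 and Slc1a5 and below them for Slc12a8, and in the other 4 genes they overlap.

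Other membrane transport genes in the same samples were taken as lists by symbol. Of 32 ABC transporters tested, which pump substrates with ATP, 7 passed the test (21.9%, against 8.84% of all genes), all higher in Ahr-/-. Abcg2, an exporter of xenobiotics and porphyrins, lay at or below 9.47 in WT (median 9.31) and at 10.36 to 10.75 in Ahr-/-, without overlap (difference -1.24, SE 0.09, limma adjusted p 2.19e-07). Abcg3, of the same subfamily, lay between 9.18 and 10.32 and between 10.32 and 11.21 (medians 10.09 and 10.99, difference -1.01, SE 0.17, limma adjusted p 0.00146), with 5 of 6 Ahr-/- samples above WT. Among 27 P-type ATPases tested 4 passed (14.8%), 3 of them higher in Ahr-/-. Atp13a2, a pump of the lysosome, had 8.96, 9.26 and 9.43 in WT and 10.20, 10.60 and 10.72 in Ahr-/-, without overlap (difference -1.33, SE 0.12, limma adjusted p 1.81e-06). Atp1b1, the beta subunit of the sodium pump, was the one higher in WT, with 10.04, 10.53 and 11.39 against 8.66, 9.29 and 10.09 (difference 1.34, SE 0.25, limma adjusted p 0.00315, 5 of 6 WT samples above), and WT F1 and M3 were its highest samples. The aquaglyceroporin Aqp9, 1 of 4 aquaporins tested to pass (25%), lay at 8.74, 9.27 and 9.71 in WT and at 10.39, 10.76 and 11.23 in Ahr-/-, without overlap (difference -1.49, SE 0.16, limma adjusted p 1.63e-05).

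Of 17 subunits of the vacuolar proton pump 1 passed (5.88%, against 8.84% of all genes), Atp6v1e1 (difference -0.51, SE 0.12, limma adjusted p 0.0143), with 4 Ahr-/- samples above the highest WT sample (9.31) and a WT median of 8.95 against 9.57. Mfsd12, a carrier of lysosome-related organelles, was 1 of 13 Mfsd genes to pass (7.69%). Its values were 6.54, 6.59 and 6.82 in WT and 6.97, 7.03 and 7.21 in Ahr-/-, without overlap (difference -0.41, SE 0.11, limma adjusted p 0.0236). Its adjusted p lay between 0.0502 and 0.0715 without each of Ahr-/- F1, Ahr-/- M1 and Ahr-/- M3. Of the 74 solute carriers below the threshold that passed the minimum mean, 3 passed the test (4.05%). They were Slc9c1, a sodium-proton exchanger (medians 6.45 in WT and 7.28 in Ahr-/-, difference -0.73, SE 0.17, limma adjusted p 0.0119, 4 Ahr-/- samples above WT), and, higher in WT, Slc10a1 (7.31 and 6.75, 0.52, SE 0.14, limma adjusted p 0.027, 4 WT samples above Ahr-/-) and the sugar carrier Slc5a9 (6.33 and 5.90, 0.54, SE 0.16, limma adjusted p 0.0456, 5 WT samples above Ahr-/-). For Slc10a1 the adjusted p lay between 0.05 and 0.0715 without each of WT F1, WT M1, WT M2, Ahr-/- F1, Ahr-/- M1 and Ahr-/- M3. For Slc5a9 it lay between 0.0533 and 0.119 without each of WT F1, WT F3, WT M1, WT M2, WT M3, Ahr-/- F1, Ahr-/- F2, Ahr-/- M1 and Ahr-/- M3. By voom the differences were larger, with -0.69 for Mfsd12, -1.30 for Slc9c1, 0.92 for Slc10a1 and 1.61 for Slc5a9, and the highest adjusted p among the alternatives were 0.0605 for Mfsd12, 0.0741 for Slc10a1 and 0.201 for Slc5a9.

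Markers of eosinophils and of other cells differed between these genotypes too. Of 5 eosinophil markers tested Prg2 (difference -2.30, limma adjusted p 3.47e-07) and Alox15 (-0.58, limma adjusted p 0.023) were higher in Ahr-/-, each in all 6 samples. Of 7 goblet cell markers 6 were higher in WT, and their sums were 7328 to 20576 normalized counts in WT against 4997 to 6737 in Ahr-/-, with Muc2 as the most abundant gene (28% of the sum). Enterocyte markers summed to 6108 to 22384 in WT and 4267 to 11476 in Ahr-/-, 0 of 14 passed limma (median difference 0.45), and Sis was the most abundant (18%). Of the 8 acinar markers tested 3 were higher in WT, where sums ran from 83 to 4464 against 43 to 553, with Ctrb1 as the most abundant gene (28.9%). Of 9 tested macrophage and dendritic cell markers Csf1r and Itgax were higher in Ahr-/-, and sums were 7797 to 11188 in WT and 11240 to 14793 in Ahr-/-, but Itgax, which eosinophils of the intestine express as well, made up 68.2% of them. None of these lists had a defining marker at 0 in all samples, and the part of these cells in the differences of the carriers was not tested. Slc40a1 and Slc8a1 had their lowest WT values in F1 (9.32 and 7.85), the WT sample with the highest sum of enterocyte markers (22384). In WT M3, which had the next highest sum (15061), they lay at 9.87 and 7.91. Of the other carriers that passed higher in Ahr-/-, Slc12a5, Slc44a2, Slc24a3 and Slc1a5 were also lowest in WT F1. Slc12a9 and Slc22a23 were lowest in WT F3 and Slc27a4 in WT M2.

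The remaining marker lists are described next. Of 6 Paneth cell markers 0 passed limma between WT and Ahr-/-, with sums of 1619 to 12873 and 1269 to 7317 normalized counts, most from Lyz1 (63.1%). Of 5 dividing cell markers Top2a was higher in WT, and sums were 2869 to 5657 and 1815 to 3519, most from Mki67 (70.4%). Among endothelial markers Pecam1, which leukocytes share and which made up 96.1% of the sum, was higher in WT, with sums of 2577 to 3817 and 1877 to 2331. Neutrophil markers summed to 222 to 570 in WT and 252 to 2201 in Ahr-/-, with S100a9 first (55.6%), and B and plasma cell markers to 229 to 1775 and 96 to 740, with Jchain first (95%). Mast cell sums were 59 to 179 and 60 to 538 (Kit, 82.1%), fibroblast sums 50 to 202 and 58 to 99 (Col3a1, 31.4%), T and innate lymphocyte sums 15 to 163 and 12 to 87 (Cd4, 47.9%) and red cell sums 25 to 67 and 24 to 64 (Alas2, 81.4%). In these last 6 lists 0 of the tested markers (4, 3, 1, 2, 1 and 1) passed limma between WT and Ahr-/-, and the part of these cells was not tested.

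WT against Ahrr-/- asks what loss of the AHR repressor does. The repressor is induced by AHR and competes with it for its partner and its sites on DNA, and it is one of several brakes on the receptor. Among 11546 genes tested 9 had a limma adjusted p below 0.05, which is 0.0779%, all higher in the samples labelled Ahrr-/-, and among the 152 carriers there were 0. Unadjusted p was below 0.05 for 8 carriers and for 853 genes. By voom 0 carriers and 4 genes passed after adjustment, with 9 carriers and 845 genes at an unadjusted p below 0.05. No carrier had groups without overlap, against 0.459% of all genes (0.182% higher in WT and 0.277% higher in Ahrr-/-). The count was 0 with each sample left out and without Ahrr-/- F3, M1 and M3. Differences of the carriers lay between -0.89 (Slc35g1) and 0.61 (Slco4c1), both named for these extremes after their values were seen, with a median of -0.09 against -0.01 over all genes. Of the 9 genes that passed, S100a8 and S100a9 were the marker genes among them, 2 of 4 neutrophil markers tested, whose sums were 222 to 570 normalized counts in WT and 1114 to 3922 in Ahrr-/-. In every other marker list 0 genes passed limma in this comparison.

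For the 11 genes that passed between WT and Ahr-/-, the values of the samples labelled Ahrr-/- are given beside the WT values, which both comparisons share. Slc40a1 had a mean of 9.96 (SD 0.46) in Ahrr-/- (difference WT minus Ahrr-/- -0.14), with the 3 highest values in F1, F2 and M1. Slc8a1 lay at 7.72, 7.99 and 8.26 (0.05), Slc12a9 at 7.91, 8.40 and 8.50 (0.13) and Slc1a5 at 8.38, 8.76 and 8.99 (0.09). These ranges overlapped with the WT ranges throughout. Slc44a2 lay at 9.47, 10.14 and 10.44 (0.19), Slc24a3 at 8.05, 8.76 and 9.37 (0.21) and Slc12a5 at 6.04, 6.94 and 7.13 (0.16). The lowest values of Slc44a2 and Slc24a3 were those of M3. With Ahrr-/- F3, M1 and M3 left out, these differences turned to the other sign, with -0.13 for Slc44a2, -0.12 for Slc24a3, -0.10 for Slc12a5, -0.06 for Slc8a1, -0.01 for Slc12a9 and -0.05 for Slc1a5, and that of Slc40a1 was -0.36. Slc27a4 lay at 8.16, 8.56 and 9.03 (-0.30), Slc22a23 at 6.72, 7.61 and 7.89 (-0.21), Slc35a3 at 10.07, 10.82 and 11.38 (0.00) and Slc12a8 at 6.83, 7.43 and 8.57 (-0.34). Without the 3 samples these were -0.30, -0.01, 0.24 and -0.13. The limma adjusted p of these 11 differences lay between 0.671 and 0.995, which leaves differences of this size undetected and does not show that the genotypes are alike.

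The direct comparison of the knockouts, Ahrr-/- minus Ahr-/-, sets mice labelled as lacking the repressor against mice labelled as lacking the receptor, and it shares its samples with both comparisons above. Carriers are among the genes that differ here, and so are epithelial markers. Among 11474 genes 1708 passed limma, which is 14.9%, and among the 152 carriers 31 did, which is 20.4%. Higher in Ahrr-/- were 22 carriers, 14.5%, against 8.04% of all genes, and higher in Ahr-/- were 9, 5.92%, against 6.84%. Slc12a8, Slc9a3, Slc44a3, Slc27a2 and Slc30a4 of the 22 and Slc12a5 of the 9 entered the list through some genotypes only. These shares therefore follow in part from the choice. The median difference was 0.09 for the carriers and 0.00 for all genes, and 6 carriers did not overlap, 3.95%, against 4.61% of all genes, with 1 higher in Ahrr-/- (background 1.6%) and 5 higher in Ahr-/- (background 3.01%). Unadjusted p was below 0.05 for 64 carriers, 42.1%, and for 32.8% of all genes. These counts rested on few samples. Without Ahrr-/- F3, M1 and M3 together, a setting chosen after seeing the data, 4 carriers passed, 2 in each direction, and 626 of 11320 genes. Leaving out 1 sample gave 18, 19 and 12 carriers without Ahrr-/- F3, M1 and M3, and 15, 14, 10, 16 and 11 without Ahr-/- F1, F2, M1, M2 and M3. In these settings between 818 (without Ahr-/- M3) and 1378 (without Ahrr-/- M1) of all genes passed. It gave 48 without Ahrr-/- F2, 45 without Ahrr-/- F1, 36 without Ahrr-/- M2 and 34 without Ahr-/- F3, beside 2285, 2574, 1888 and 1990 of all genes. The number of carriers thus moved in the same direction as that of all genes. By voom 18 carriers and 1230 of 11474 genes passed, and by voom with size factors, also chosen after seeing the data, 32 carriers and 1728 genes did. By class, beside the 14.9% of all genes, 9 of 25 ion carriers, 5 of 22 metal carriers, 4 of 6 lipid and choline carriers and 2 each of the amino acid, mitochondrial, monocarboxylate and organic ion carriers passed in all samples.

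The largest increases in Ahrr-/- were those of Slc5a1, Slc12a2 and Slc9a3. Slc5a1 (chromosome 5, 33104219 to 33162699), the sodium-glucose cotransporter of the brush border, had a mean of 9.42 (SD 1.22) and a median of 9.70 in Ahrr-/- and lay at 7.40, 8.19 and 8.40 in Ahr-/-. F3 (10.72), M1 (10.38) and M3 (10.26) were the highest of all 18 samples, and F1 and F2 lay within the Ahr-/- range. Its difference was 1.39 (SE 0.39, limma adjusted p 0.0305, 4 of 6 Ahrr-/- samples above Ahr-/-), and without F3, M1 and M3 it was 0.47 with an adjusted p of 0.168. Without each of Ahr-/- F1, F2, M1, M2 and M3 and Ahrr-/- M1 and M3 the adjusted p lay between 0.0592 and 0.0726. Slc9a3 (chromosome 13, 74086255 to 74169442), the apical sodium-proton exchanger, lay at 6.84, 7.55 and 8.95 and at 6.11, 6.65 and 7.15. Slc9a3 and Ahrr (74211118 to 74292331) are close on this chromosome, and an effect of the Ahrr allele on Slc9a3 was not tested. For Slc9a3, Ahrr-/- F3 (8.95) and M3 (8.70) were the highest samples, followed by WT F1 (8.48). Its difference was 1.12 (SE 0.31, limma adjusted p 0.0289, 5 of 6 Ahrr-/- samples above Ahr-/-), 0.57 with an adjusted p of 0.121 without the 3 samples, and 0.0504 to 0.0716 without each of Ahr-/- F1, F2, M1 and M3 and Ahrr-/- M3. Slc12a2 (chromosome 18, 57878512 to 57946821), the sodium-potassium-chloride cotransporter of secretory epithelium, lay at 8.25, 9.99 and 11.59 and at 8.15, 8.92 and 9.22, with M3 (11.59) and F3 (10.81) highest. Its difference of 1.17 (SE 0.36, limma adjusted p 0.0446, 5 of 6 Ahrr-/- samples above Ahr-/-) was 0.47 with an adjusted p of 0.325 without the 3 samples. It had an adjusted p between 0.0583 and 0.0979 without each of Ahr-/- F1, F2, M1, M2 and M3 and Ahrr-/- F3, M1 and M3. By voom none of the 3 passed, with 1.68 for Slc5a1 (adjusted p 0.0505), 1.80 for Slc9a3 (0.0683) and 1.31 for Slc12a2 (0.0759), while all 3 passed by voom with size factors. Without sex in the model Slc5a1 and Slc12a2 did not pass. Slc12a2 was lost with no minimum mean and with a robust trend as well.

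Slc12a8 and Slc2a6 were also higher in Ahrr-/- without those 3 samples. Slc12a8, Slc9a3 and Slc44a3 reached the threshold in Ahrr-/- and WT but not in Ahr-/-, as did Slc27a2 and Slc30a4, so their direction in this comparison follows in part from the choice. Slc12a8 lay at 6.83, 7.43 and 8.57 in Ahrr-/- and at 6.28, 6.63 and 6.86 in Ahr-/-, with 5 of 6 Ahrr-/- samples above Ahr-/-. Its difference was 0.95 (SE 0.22, limma adjusted p 0.0125) and 0.76 without F3, M1 and M3 (adjusted p 0.0282). Slc2a6 (chromosome 2, 27021363 to 27028000), a sugar transporter of lysosomal membranes in myeloid cells, lay at 7.72, 8.42 and 9.28 and at 6.53, 7.45 and 8.97. Females were higher than males in both knockouts, so the ranges overlapped, and within each sex the 3 Ahrr-/- samples lay at 8.94 to 9.28 against 7.90 to 8.97 in females and at 7.72 to 7.90 against 6.53 to 7.00 in males. The difference was 0.93 (SE 0.17, limma adjusted p 0.00305), 0.97 without the 3 samples (adjusted p 0.00948), and lost without sex in the model (adjusted p 0.155). Slc44a3, near the threshold, lay at 6.93, 7.39 and 8.07 and at 6.24, 6.67 and 6.91, with no overlap (difference 0.77, SE 0.17, limma adjusted p 0.0115), with a difference of 0.41 and an adjusted p of 0.114 without the 3 samples. By voom the differences were 1.68 for Slc12a8 and 1.35 for Slc44a3. The other 16 genes higher in Ahrr-/- had differences between 0.37 (Slc39a1) and 0.90 (Slc51a), these ends, like Slc27a2 and Slc30a4, being named after their values were seen, and none of the 16 passed without the 3 samples.

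In the other direction 9 genes were higher in Ahr-/-, and the Ahr-/- values are those of the comparison with WT, so the results are not independent. Slc8a1 had all 6 Ahrr-/- samples below all Ahr-/- samples (difference -0.77, SE 0.13, limma adjusted p 0.00163), also without the 3 samples (-0.65, adjusted p 0.00936). Slc12a9 did as well (-0.59, SE 0.12, limma adjusted p 0.00522, with -0.46 and 0.0206 without the 3 samples). For Slc40a1 5 of 6 Ahrr-/- samples were below Ahr-/-, F1 being the exception (-0.94, SE 0.21, limma adjusted p 0.0112), with -0.70 and 0.0798 without the 3 samples. Slc44a2 had no overlap (-0.69, SE 0.15, limma adjusted p 0.0103, with -0.39 and 0.0577 without the 3 samples), and neither had Slc1a5 (-0.49, SE 0.12, limma adjusted p 0.0153, with -0.37 and 0.0954). Slc24a3 and Slc12a5 had differences of -0.69 (SE 0.18, limma adjusted p 0.0241, 5 of 6 samples below) and -0.67 (SE 0.18, limma adjusted p 0.0233, 6 of 6 samples below). Without the 3 samples these were -0.37 (adjusted p 0.195) and -0.38 (adjusted p 0.128). For Slc24a3 the adjusted p lay between 0.0528 and 0.0649 without each of Ahr-/- M1, M2 and M3 and Ahrr-/- F3 and M3, and for Slc12a5 between 0.0553 and 0.0627 without each of Ahr-/- M1, M2 and M3. Slco4c1, the organic anion carrier with the highest level per length in its class, lay at 11.54, 11.89 and 12.46 in Ahrr-/- and at 12.22, 12.44 and 12.86 in Ahr-/- (-0.59, SE 0.18, limma adjusted p 0.0417, 5 of 6 Ahrr-/- samples below). Its adjusted p lay between 0.0528 and 0.0992 without each of Ahr-/- F1, F2, M1, M2 and M3 and Ahrr-/- F2, F3, M1 and M3. Without the 3 samples the difference of Slco4c1 was -0.37 with an adjusted p of 0.263. By voom Slc1a5 (-0.54, adjusted p 0.0548) and Slc12a5 (-1.10, adjusted p 0.0612) did not pass, while they passed by voom with size factors. Slco4c1 did not pass with no minimum mean or without sex in the model. Slc25a12, named after its values were seen, completed the 9 (-0.52, limma adjusted p 0.0307) and did not pass without the 3 samples. Slc12a5 reached the threshold only in Ahr-/-, so its direction too follows in part from the choice.

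Epithelial markers differed between the same samples. Enterocyte sums were 6954 and 6960 normalized counts in Ahrr-/- F1 and F2, 16761 in M2 and 33765, 36118 and 35598 in F3, M1 and M3, against 4267 to 11476 in Ahr-/-, and 5 of 14 enterocyte markers passed limma, all higher in Ahrr-/-. Goblet cell sums were 4206 to 45624 (6 of 7 markers higher in Ahrr-/-), Paneth cell sums 7200 to 57895 (6 of 6), fibroblast sums 38 to 1626 (1 of 4 tested), B and plasma cell sums 333 to 6045 (1 of 3 tested), dividing cell sums 1777 to 9110 (3 of 5) and neutrophil sums 1114 to 3922 (2 of 4 tested). Acinar sums were 89 to 2612 (1 of 4 tested higher in Ahrr-/-), endothelial sums 1763 to 3812 (1 of 4) and macrophage and dendritic cell sums 8794 to 14765 (C1qb higher in Ahrr-/- and Itgax higher in Ahr-/-, of 10). Of 5 eosinophil markers tested 4 were higher in Ahr-/-. T and innate lymphocyte sums of 11 to 112, mast cell sums of 63 to 215 and red cell sums of 14 to 63 came with 0 of 1 tested marker passing limma in each list. Ahrr-/- F3, M1 and M3 were the 3 highest of all 18 samples for 17 carriers, 11.2%, against 5.74% of all genes, and for 8 of the 22 carriers that were higher in Ahrr-/- (5.26% of the carriers, background 1.97%). Carriers were chosen by their mean over all 18 samples, which include these 3, so these shares follow in part from the choice. The part of these cells in the differences of the carriers was not tested.

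**Figure D3:**
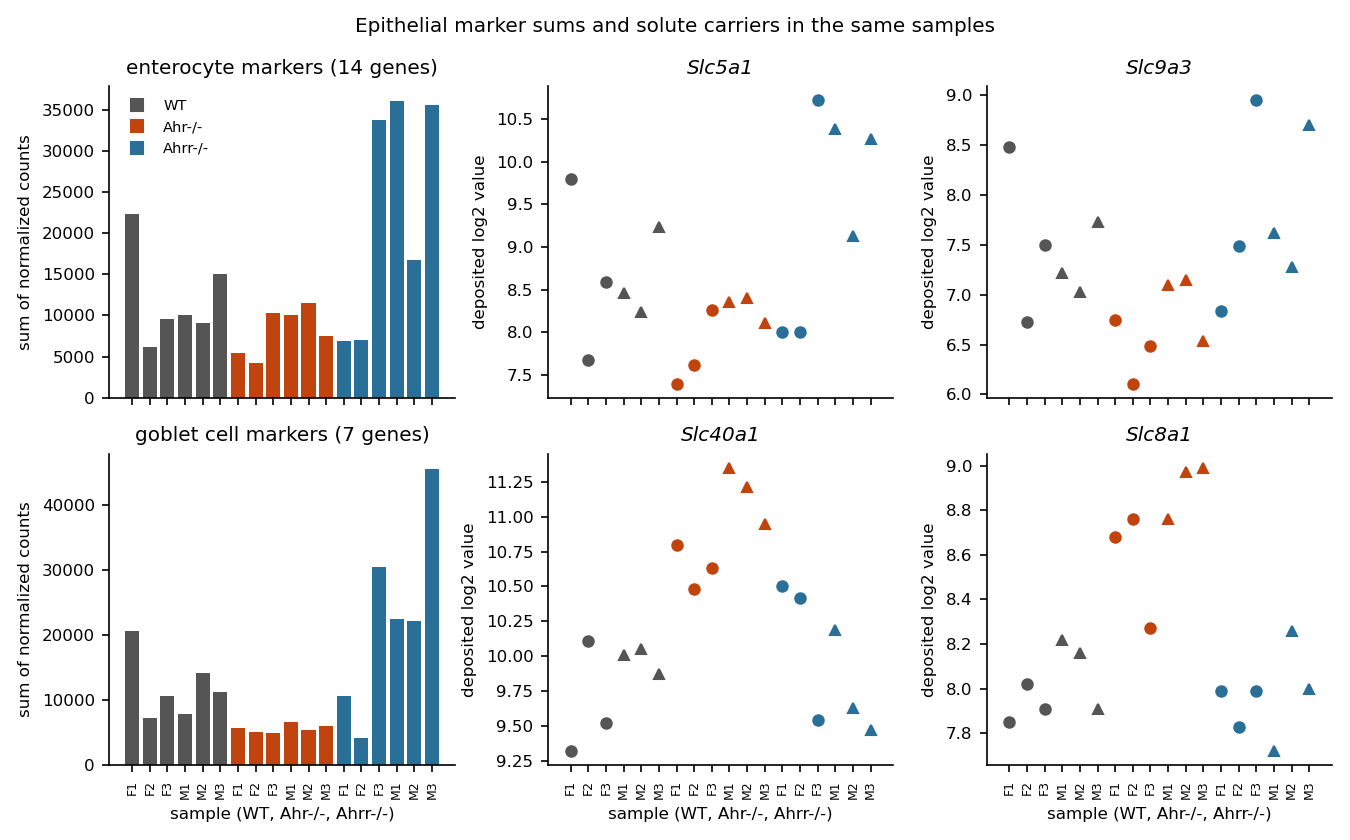
Summed normalized counts of enterocyte and goblet cell markers (bars) and deposited log2 values of Slc5a1, Slc9a3, Slc40a1 and Slc8a1 (circles for females, triangles for males) in each of the 18 samples along the x axis. Ahrr-/- F3, M1 and M3 have the highest enterocyte sums (33765 to 36118) and the highest Slc5a1 values (10.26 to 10.72), while Slc8a1 is highest in Ahr-/- (8.27 to 8.99).

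The other membrane transport genes were counted in this comparison too. Of 32 ABC transporters 6 passed limma (18.8%, against 14.9% of all genes), all higher in Ahr-/-, with Abcg2 at -1.13 (SE 0.14, limma adjusted p 0.000151, no overlap) and Abcg3 at -1.35 (SE 0.23, limma adjusted p 0.00174, 5 of 6 Ahrr-/- samples below). Of 27 P-type ATPases 10 passed (37%), 6 higher in Ahrr-/- and 4 higher in Ahr-/-, among them Atp1b1 (1.53, SE 0.26, limma adjusted p 0.002, 5 of 6 Ahrr-/- samples above) and Atp13a2 (-1.32, SE 0.16, limma adjusted p 0.000105, no overlap). Aqp9 had a difference of -1.60 (SE 0.18, limma adjusted p 4.53e-05, no overlap) and was 1 of 2 aquaporins to pass of 4. Without Ahrr-/- F3, M1 and M3 these 5 differences were -1.39, -0.94, 1.05, -1.04 and -1.34, all with an adjusted p below 0.05. Atp6v1e1 was the 1 gene of 17 of the vacuolar pump to pass (-0.56, SE 0.14, limma adjusted p 0.0207, 5 of 6 Ahrr-/- samples below, 0.0572 without Ahr-/- M3, and -0.43 with an adjusted p of 0.143 without the 3 Ahrr-/- samples), and 1 of 13 Mfsd genes passed, Mfsd14b, named after its value was seen. Of 76 solute carriers below the threshold 12 passed (15.8%), 11 of them higher in Ahrr-/-. Slc7a9, just below the threshold, was among the 11 (0.86, SE 0.26, limma adjusted p 0.0386, 4 of 6 Ahrr-/- samples above), with 0.25 and an adjusted p of 0.473 without Ahrr-/- F3, M1 and M3, and with an adjusted p between 0.0691 and 0.0917 without each of Ahr-/- F1, F2, M1, M2 and M3 and Ahrr-/- F3, M1 and M3. Slc9c1 was the 1 gene higher in Ahr-/- (-0.57, SE 0.17, limma adjusted p 0.0377, 5 of 6 Ahrr-/- samples below), with -0.62 and an adjusted p of 0.109 without the 3 samples, and with 0.0575 to 0.0902 without each of Ahr-/- F2, M1, M2 and M3 and Ahrr-/- F3, M2 and M3. By voom Slc7a9 (1.56, adjusted p 0.0583) and Slc9c1 (-0.91, adjusted p 0.071) did not pass, and without sex in the model neither these nor Atp6v1e1 did. With no minimum mean Slc7a9 and Slc9c1 were lost too.

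Sex is the other labelled condition, and 9 male and 9 female samples were compared with genotype as covariate. Immune cells of males and females differ in their sex chromosomes and in the hormones they meet, and whether their carriers differ is the question here. Differences are male minus female. Among 11468 genes tested 351 passed limma, which is 3.06%, and among the 152 carriers 11 did, which is 7.24%, all of them higher in females (background 2.46%) and 0 higher in males (background 0.602%). No carrier had groups without overlap, against 0.148% of all genes (0.061% higher in males and 0.0872% higher in females), and the median difference was 0.03 for the carriers and 0.01 for all genes. Unadjusted p was below 0.05 for 47 carriers, 30.9%, and for 18.7% of all genes. By voom, which moved the median of all genes to 0.17, 12 carriers passed, 9 higher in females and 3 higher in males, and 402 of all genes. By voom with size factors, where that median was 0.02, 12 carriers passed, 0 of them higher in males, and 340 of all genes. In the 6 WT samples alone 0 carriers and 5 of 11409 genes passed limma, and 9 carriers and 405 genes had an unadjusted p below 0.05. Leaving out 1 sample gave 21 carriers without WT F1, 17 without WT M1, 18 without Ahrr-/- F3, 5 without Ahr-/- M1, 6 without Ahrr-/- F2 and 7 without each of WT F2, Ahr-/- F2 and Ahr-/- M2. Of all genes 733, 595, 577, 142, 173, 181, 159 and 180 passed in these settings, in the same order.

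Slc2a6 had the largest difference, with 6.31, 7.59 and 8.44 in males and 7.90, 8.94 and 9.28 in females. Of the 9 males 7 lay below every female, and WT M1 (8.44) was the highest male (difference -1.36, SE 0.22, limma adjusted p 0.00431). Slc11a1 (chromosome 1, 74375014 to 74386057), which moves iron and manganese out of phagosomes, lay at 8.09, 8.96 and 9.63 in males and at 9.13, 10.13 and 11.26 in females. In each genotype all 3 females but WT F1 and F3 were above the males, those being below WT M1 (difference -1.20, SE 0.23, limma adjusted p 0.00858, 6 of 9 males below every female). Slc16a3 (chromosome 11, 120948484 to 120959000), which exports lactate, lay at 9.97, 10.43 and 11.04 and at 10.78, 11.20 and 11.90. The ranges overlapped through WT M1, Ahrr-/- M1 and M2 on the male side, and 6 of 9 males lay below every female (difference -0.76, SE 0.17, limma adjusted p 0.0182, 0.05 without Ahr-/- M1). Slc3a2 (chromosome 19, 8706882 to 8723369), the heavy chain of heteromeric amino acid exchangers, lay at 10.10, 10.41 and 11.14 and at 10.74, 11.16 and 11.82. Only WT M1 (11.14) was above the lowest female (difference -0.70, SE 0.15, limma adjusted p 0.0175, 8 of 9 males below every female). Slc27a4 lay at 7.68, 8.28 and 8.61 and at 8.24, 8.91 and 9.75 (difference -0.65, SE 0.14, limma adjusted p 0.0182, 6 of 9 females above every male), and it was lost without genotype in the model. Without Ahrr-/- F3, M1 and M3 the differences of these 5 genes were -1.38, -1.09, -0.79, -0.70 and -0.74, with adjusted p of 0.0109, 0.0174, 0.0111, 0.0179 and 0.0171.

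The other 6 carriers that were higher in females (Slc2a1, Slc49a4, Slc25a16, Slc9a8, Slc38a1 and Slc25a25) had differences between -0.58 and -0.34 and adjusted p between 0.0175 and 0.035 from limma. They are the carriers outside the naming rule that passed, and were named after their values were seen. In WT alone, with 3 males and 3 females, the limma adjusted p of each of the 5 genes described in full was 0.998. Of the marker lists, Kit of the mast cells and Ltf of the neutrophils were higher in females and H2-Aa and H2-Ab1 of the macrophages and dendritic cells higher in males, and in the other lists 0 markers passed limma. Mast cell sums were 59 to 198 normalized counts in males and 74 to 538 in females, and Kit made up 82.1% of the sum over all samples. Neutrophil sums were 222 to 1626 and 311 to 3922, and macrophage and dendritic cell sums 8794 to 14793 and 7797 to 12211, and the part of these cells was not tested. Among the other transport genes 1 of 32 ABC transporters (Abca13, higher in females and named after its value was seen) and Slc10a1, 1 of 77 solute carriers below the threshold, passed limma. Over all genes 3.06% passed. Slc10a1 lay at 6.35, 6.80 and 7.41 in males and at 6.87, 7.14 and 7.69 in females (-0.43, SE 0.12, limma adjusted p 0.0485, 7 of 9 males below every female). Without Ahrr-/- F3, M1 and M3 together its difference was -0.42 with an adjusted p of 0.0775, and by voom -0.57 with 0.0904. It was also lost with no minimum mean and without genotype in the model. The adjusted p lay between 0.0517 and 0.112 without each of 14 of the 18 samples, the exceptions being WT F2, WT M1, Ahrr-/- F3 and Ahrr-/- M1. In the P-type ATPases, vacuolar pump, aquaporins and Mfsd genes 0 passed, with 3 of 27, 4 of 17, 1 of 4 and 3 of 13 at an unadjusted p below 0.05, against 18.7% of all genes.

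**Figure D4:**
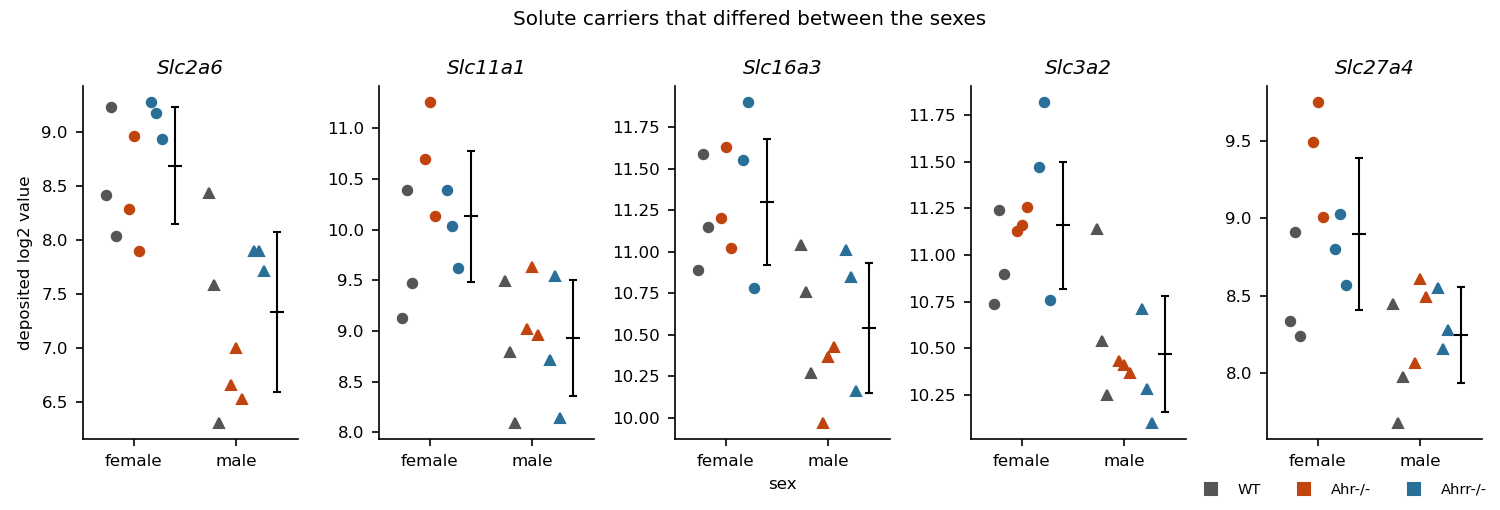
Deposited log2 values (y axis) of the 5 solute carriers with the largest differences among those that passed the test between the sexes, in 9 female (circles) and 9 male samples (triangles) colored by genotype, with the mean and SD of each sex in black. Females are higher in all 5 genes with some overlap, and Slc2a6 runs from 7.90 to 9.28 in females and from 6.31 to 8.44 in males.

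Whether the difference between WT and Ahr-/- depends on sex was tested by an interaction term in those 12 samples. By limma 0 of 11346 genes and 0 of the 152 carriers had an adjusted p below 0.05, with an unadjusted p below 0.05 for 533 genes, which is 4.7%, and for 7 carriers. By voom 0 carriers and 0 genes passed as well, with 12 carriers and 582 genes at an unadjusted p below 0.05. For Slc27a4, in which only the Ahr-/- females stood above WT, no dependence of the genotype difference on sex was thus detected, but with 3 samples per genotype and sex the test has little power, and even large differences could have been missed.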

How the data were processed

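The table that the authors deposited holds log2 values, variance-stabilized by DESeq2, for 22708 genes in 18 samples. The processing notes of the authors name STAR 2.5.2, RSEM 1.3.0, DESeq2 and R 4.0.3. The values were turned back into counts, and 100% were whole numbers within 0.001.

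Differences were tested with limma 3.58.1 in R 4.3.3 on the deposited values with a mean trend and sex (or genotype) as covariate, for genes with a mean at least 1 above the lowest value, at a Benjamini-Hochberg adjusted p below 0.05 over all genes. Tables and figures were made with Python 3.11.15, numpy 2.4.6, pandas 2.3.3 and matplotlib 3.10.9. Exon lengths came from GENCODE M21.

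The threshold and the lists were chosen with earlier results of these data known. Genes were named by a rule: the largest differences that passed in each direction between genotypes and between the sexes, the largest difference and highest level per length in each class, the genes nearest the threshold, and the largest differences of each companion list. The companion lists were ABC transporters, P-type ATPases, vacuolar ATPase, aquaporins, Mfsd carriers and solute carriers below the threshold. Marker lists were eosinophils, enterocytes, goblet, Paneth and pancreatic acinar cells, macrophages and dendritic cells, B and plasma cells, neutrophils, T cells and innate lymphocytes, fibroblasts, mast cells, endothelial cells, red cells and dividing cells.

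Alternatives were no minimum mean, a minimum mean 3 above the lowest deposited value, median centring, quantile normalization, no trend, a robust trend, a replicate block, log2 counts, voom, models without a covariate, all 18 samples in the fit, WT samples only for sex, and each sample left out. Leaving out Ahrr-/- F3, M1 and M3 together and voom with size factors were chosen after seeing the data. The code was tested on simulated data.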

Additional observations from a re-analysis of the deposited data

Results flagged for a closer look

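Among 29 named carriers in each of 3 genotypes, 87 groups of 6 samples were checked for a sample far from the rest, and 5 were past the critical Dixon ratio for 6 values. By chance about 1 in 20 groups would be marked in this way.

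Slc22a23 was 7.15 in Ahr-/- F2, with the next sample at 8.08 and the highest at 8.35 (ratio 0.774). Slc12a5 was 6.04 in Ahrr-/- M1, with the next at 6.78 and the highest at 7.13 (0.677). Slc12a2 was 8.15 in Ahr-/- F1, with the next at 8.82 and the highest at 9.22 (0.628). Slc15a2 was 6.54 in Ahr-/- M3, with the next at 10.19 and the highest at 11.79 (0.696). Slc23a2 was 8.63 in WT F1, with the next at 8.78 and the highest at 8.81 (0.819).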

How the results depend on the processing

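Between WT and Ahr-/- 11 carriers passed the test, between 6 (all 18 samples in the fit) and 12 in the alternatives, and between 6 (without Ahr-/- F1) and 15 (without WT M1) with 1 sample left out. Of all genes 1003 passed, 553 with all 18 samples in the fit, 623 without Ahr-/- F1 and 1088 without WT M1. By quantile normalization, where 12 carriers passed, 1103 genes did. Higher in WT were 18.2% of the 11, 0% with all 18 samples, with no minimum mean and without each of Ahr-/- F1, F2 and M3, and 28.6% without WT F2. Slc40a1, Slc8a1, Slc12a9 and Slc1a5 passed in every setting. Between WT and Ahrr-/- 0 passed in every setting.

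Between Ahrr-/- and Ahr-/- 31 passed. The number was 20 with no minimum mean (1256 of 21734 genes) and 17 with a minimum mean 3 above the lowest value (83 carriers tested, 828 of 5372 genes). By voom it was 18 (1230 of 11474 genes) and by voom with size factors 32 (1728 of 11474). It was 14 without sex in the model (994 of 11474 genes) and 4 without Ahrr-/- F3, M1 and M3 (626 of 11320). With 1 sample left out it ran from 10 (839 of 11494 genes) to 48 (2285 of 11491). Higher in Ahrr-/- were 71%, 42.9% without sex in the model and between 42.9% (without Ahr-/- F2) and 73.3% (without Ahrr-/- F1) with 1 sample left out. Slc12a9 and Slc8a1 passed in every setting. Slc12a8 passed in every setting in which it was tested, as its mean is less than 3 above the lowest deposited value. Between the sexes 11 passed, 0 in WT alone, and 5 to 21 with 1 sample left out. None was higher in males, against 25% by voom, 21.4% without Ahrr-/- F3, M1 and M3, 28.6% without WT F1 and 27.8% without Ahrr-/- F3. By voom with size factors 12 carriers passed between the sexes, 0 of them higher in males. That setting changes the scaling of voom, and beyond it the cause of these changes was not tested.

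With replicate number as block the counts of carriers were 12, 0, 40 and 13. In the genotype comparisons, in the same order, 918 of 11346, 4 of 11546 and 1946 of 11474 genes passed. Samples share only a number, and correlations between samples of the same number lay between -0.585 and 0.476, so the number was not used in the model otherwise. Scaling by voom moved the median of all genes from 0.01 to 0.17 between the sexes and from 0.01 to -0.14 in the interaction.

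A difference is counted as the same when sign and outcome of the test are unchanged and as weaker when it no longer passed, whatever its size. Deposited values compress differences of genes with low counts, and by voom Slc12a8 went from 0.61 to 1.16 between WT and Ahr-/-, Slc5a9 from 0.54 to 1.61, Slc9c1 from -0.73 to -1.30, Slc10a1 from 0.52 to 0.92 and Mfsd12 from -0.41 to -0.69, while Slc22a23 went from -0.78 to -1.04 and was lost (adjusted p 0.0621). Slc22a23 passed by voom with size factors. Of 776 values of 63 differences in the alternatives 695 were the same, 71 weaker and 10 reversed, and of 792 with 1 sample left out 664, 121 and 7. All reversed differences were WT minus Ahrr-/- and none had passed. Slc35a3 (0.00) became 0.04 with median centring, 0.03 by voom, 0.01 by voom with size factors (an alternative chosen after seeing the data) and 0.24 without Ahrr-/- F3, M1 and M3. It became 0.01 without WT M1, 0.01 without WT M2, 0.00 without WT M3, and 0.02, 0.06 and 0.10 without Ahrr-/- F1, F3 and M3. Slc8a1 (0.05) became -0.02 without Ahrr-/- M1. Without Ahrr-/- F3, M1 and M3, Slc8a1 became -0.06, Slc12a5 -0.10, Slc44a2 -0.13, Slc24a3 -0.12, Slc12a9 -0.01 and Slc1a5 -0.05.

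With 6 samples per genotype, 3 of each sex, moderate differences can be missed, and adjusted p close to 0.05 depend on single samples. Depth was lowest in WT (3842977 counts in F3), which limits genes near the minimum mean most. Bulk RNA gives no level per cell, and the marker lists describe mixtures without measuring shares of cells. Genotype, litter and housing cannot be told apart between Ahr-/- and WT. The carriers were selected on their mean, so genes that only one genotype expresses weakly are missing.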
